A study of Mus musculus with 4 samples.

Results

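The seed family of miR-15, miR-16, miR-195 and miR-497 was followed in the livers of WT and Clock mutant mice by day and by night. Its members were the 6 entries named mmu-miR-15a, mmu-miR-15b, mmu-miR-16, mmu-miR-195, mmu-miR-497 and mmu-miR-322 in the scanner output, of 611 mouse miRNAs carried by the array. They were picked by name for their shared seed, by a rule that uses no measured value, though with earlier results of these data known. The cluster of miR-195 and miR-497 (2 members) was set against the other 4 members.

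The experiment had 4 microarrays, 1 for each combination of genotype (WT or Clock mutant) and time (ZT2 or ZT14). ZT counts hours after lights on, so ZT2 lies in the light phase and ZT14 in the dark phase of a cycle of 12 h light and 12 h dark. All mice were males of 6 to 8 weeks that had 2 weeks of adaptation in single cages. Each array received RNA pooled from the livers of 3 mice, and all 4 arrays lay on 1 slide that was scanned once. The mutant allele is ClockΔ19, whose protein product still pairs with its partner BMAL1 and drives transcription poorly. The strain background, and whether the mutants were homozygous, are not given in the sources used here. With 1 pool per condition there was no biological replicate of any condition, so no ratio of 2 arrays carries a test, and the only error attached to it is the SD of repeated spots on the log2 scale (spot SD), which is technical.

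A miRNA guides the silencing machinery to messenger RNAs mainly through its seed, the bases near its 5′ end that pair with sites in the target, so members of 1 seed family can act on overlapping sets of targets. This family is known for restraining cell division: its targets include the cyclins D1, D3 and E1 and the checkpoint kinase Chek1, and loss of the miR-15a/16-1 locus is a hallmark of chronic lymphocytic leukaemia. In liver, miR-195 and miR-497 are known for slowing the growth of hepatocellular carcinoma cells, and CLOCK is a core activator of the circadian oscillator that times the division of hepatocytes.

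The mature sequences are shown because the seed defines the family, while the remaining bases tell its members apart. All 6 members matched a RefSeq entry of build GRCm38.p6. Bases 2 to 8, counted from the 5′ end, are in capitals.
miR-15a: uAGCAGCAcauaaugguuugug
miR-15b: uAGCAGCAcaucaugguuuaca
miR-16: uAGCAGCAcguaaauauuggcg
miR-195: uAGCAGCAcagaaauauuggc
miR-497: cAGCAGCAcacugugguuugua
miR-322: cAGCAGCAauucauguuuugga
miR-503: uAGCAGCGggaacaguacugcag

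All 6 members carried the seed AGCAGCA. It was found in 10 of the 1679 mature mouse miRNA names of RefSeq, and the 4 names that are not members, miR-195b, miR-6342, miR-6353 and miR-6419, were not in the list fixed for this family. miR-503, a neighbour of miR-322 that is often grouped with the family, is shown for contrast: its seed departs from that of miR-322 by A8G. Outside the seed the members were not equally alike. Past base 8, miR-195 and miR-16 were identical at 11 of 13 positions counted from the 5′ end, miR-15a and miR-15b at 10 of 14, and miR-195 and its cluster partner miR-497 at 5 of 13. How far a probe for miR-195 separates it from miR-16 was not tested, since the probe sequences were not used here.

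The members come from 4 loci. miR-497 lies at chr11:70234730-70234751 and miR-195 at chr11:70235062-70235082, both on the plus strand, with 310 bases between the mature sequences. miR-15b lies at chr3:69009775-69009796 on the plus strand in a cluster with Mir16-2, whose copy of miR-16 lies at chr3:69009918-69009939. miR-15a lies at chr14:61632075-61632096 on the minus strand in a cluster with Mir16-1, whose copy of miR-16 lies at chr14:61631936-61631957. Both copies give the same mature miR-16, so the array cannot tell them apart. miR-322 lies at chrX:53054306-53054327 on the minus strand, with 256 bases between its mature sequence and that of miR-503. The miR-15b and miR-15a clusters sit in introns of the host genes Smc4 and Dleu2.

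All 6 members were detected on all 4 arrays. Each was read by 2 probes of 10 spots, 480 spots in all over the 4 arrays, of which 15 were outliers and were left out and 478 were well above background. The 2 exceptions belonged to miR-322 on the WT array at ZT14, and 0 spots were saturated. The arrays detected 138 to 193 mouse miRNAs, with 123 detected on all 4, and the dimmest was that of WT at ZT14, where the 75th percentile of those 123 was 339.9 units against 503.4 to 536.6 on the others. The WT array at ZT2 also stood apart: of 4 muscle miRNAs, miR-1, miR-133a and miR-133b were detected there and on no other array, with miR-1 at 105.8 units against 0.592 to 4.46 elsewhere, miR-133b at 37.6 units and miR-133a at 21.6. The leukocyte miR-142-5p (38.0 units) and the bile duct miR-141 (9.01 units) were likewise detected on that array alone. It detected 193 miRNAs, against 138 to 161 on the others. Every ratio at ZT2 and every day-night ratio in WT rests on that array, whose part in them was not tested, whereas the ratios at ZT14 do not use it. Mean signals were divided by the percentile given above, and the resulting relative signals and their log2 ratios are used below. Relative signals of different miRNAs are not compared, because their probes differ.

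For miR-15a, the WT arrays had relative signals of 2.37 at ZT2 and 2.21 at ZT14, and the mutant arrays 2.58 and 2.30. It was highest in the mutant at ZT2 and lowest in WT at ZT14, with the genotypes overlapping. For miR-15b, the WT arrays read 0.797 at ZT2 and 0.701 at ZT14, and the mutant arrays 0.764 and 0.669. Both arrays at ZT14 were below both at ZT2, as they were for 4 of the 6 members and for 43.1% of the 123 miRNAs (for miR-15b in 6 of 13 processing alternatives), and at each time the mutant was the lower of the pair by less than the spot SD, an order that turned in 2 of 13 alternatives at ZT2 and in 5 at ZT14. miR-16, the shared product of both loci that also make the miR-15s, read 1.43 at ZT2 and 1.36 at ZT14 on the WT arrays, and 1.70 and 1.33 on the mutant arrays. The mutant array at ZT2 stood above the other 3, which lay close together. miR-322, the mouse counterpart of human miR-424, read 0.114 at ZT2 and 0.0979 at ZT14 on the WT arrays, and 0.121 and 0.109 on the mutant arrays. Its signal was the closest of the 6 to the background, from 33.3 to 61.0 units before scaling against 5.24 to 9.72 for the mean of the negative control spots.

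miR-195 read 0.227 at ZT2 and 0.207 at ZT14 on the WT arrays, and 0.267 and 0.276 on the mutant arrays. miR-497 read 0.200 and 0.187 in WT, and 0.238 and 0.241 in the mutant, in the same order of times. Both members of the cluster therefore had the same order of arrays, from mutant at ZT14 through mutant at ZT2 and WT at ZT2 down to WT at ZT14, and the mutant and WT arrays did not overlap. Such separation, with both mutant arrays above both WT arrays, was seen for these 2 of the 6 members and for 17.9% of the 123 miRNAs. The separation of both was kept in 10 of 13 processing alternatives and lost under scaling over all miRNAs with a positive signal, under a median over all spots and in the deposited log2 table. The gap between the lower mutant array and the higher WT array was 0.24 for miR-195 and 0.25 for miR-497 on the log2 scale.

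**Figure D1:**
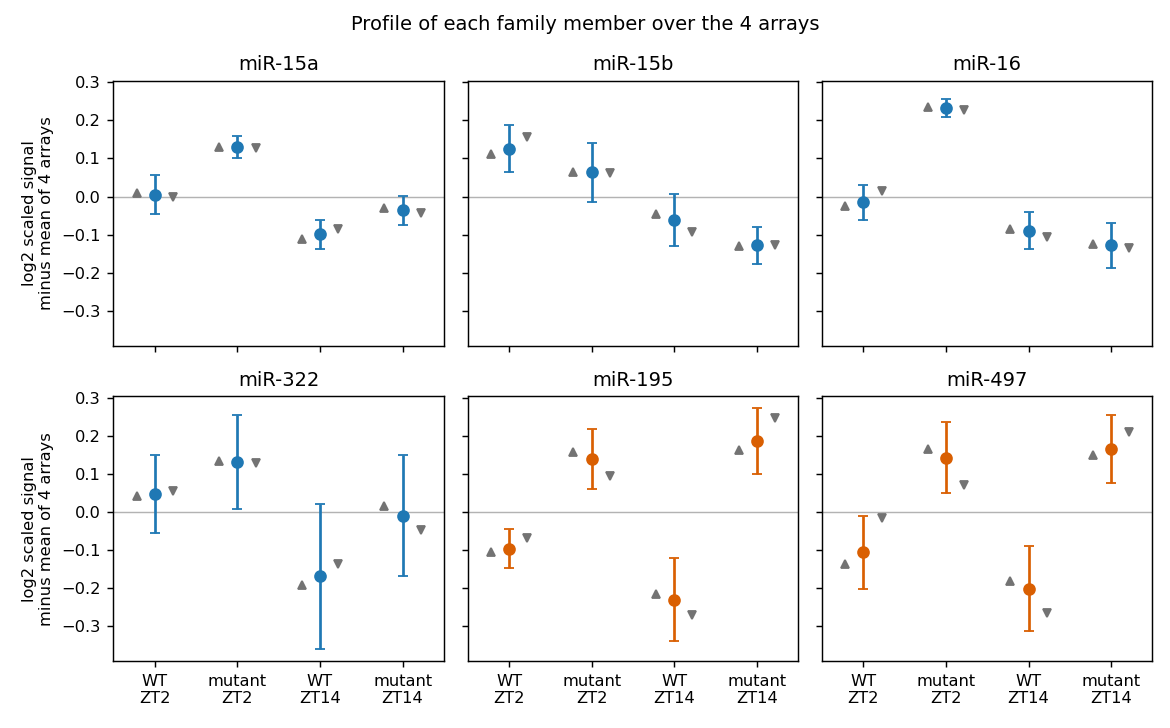
Log2 scaled signal of each member on the 4 arrays, minus the member's mean over the arrays; circles are the member with its spot SD as the bar (orange, miR-195 and miR-497; blue, other members), and triangles are its brighter (pointing up) and dimmer (pointing down) probe. miR-195 and miR-497 lie higher on both mutant arrays than on both WT arrays, which holds in 10 of 13 processing alternatives, whereas miR-15b lies higher on both arrays at ZT2, which holds in 6 of 13.

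The first comparison asked whether the family differed between Clock mutant and WT at ZT2. There, 5 of the 6 members had a mutant/WT log2 ratio above 0, as had 48.0% of the 123 miRNAs, and the family's median was 0.18 beside -0.01 over all 123. The highest ratios were those of miR-497 (0.25, spot SD 0.13), miR-16 (0.25, spot SD 0.05) and miR-195 (0.24, spot SD 0.09), which are 1.18-fold to 1.19-fold. miR-15a followed at 0.12 (spot SD 0.06), miR-322 at 0.08 (spot SD 0.16) and miR-15b at -0.06 (spot SD 0.10). A member was higher by more than its spot SD in 4 cases, beside 28.5% of the 123. No member reached 2-fold in either direction, against 0% of the 123 higher and 1.63% lower by that much. Relative to the median of all 123, the family's median was above in 13 of 13 processing alternatives, by 0.067 to 0.20. Alternatives that change only a constant per array cannot alter this difference. As a ratio the family's median fell below 0 in 3 of the 13, under scaling over all miRNAs with a positive signal, under the scanner's total signal and under a median over all spots.

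At ZT14 the family spread out further. miR-195 had a log2 ratio of 0.42 (spot SD 0.14, 1.33-fold) and miR-497 one of 0.37 (spot SD 0.14, 1.29-fold), ranking 7th and 9th from the top of the 123 miRNAs, against 16th and 14th at ZT2. miR-322 was next at 0.16 (spot SD 0.25) and miR-15a at 0.06 (spot SD 0.05). miR-16 stood at -0.04 (spot SD 0.08) and miR-15b at -0.07 (spot SD 0.08). The family's median was 0.11 beside -0.03 over all 123 (from -0.23 with a median over all spots to 0.93 with scaling by spike-in probes, where the median of all miRNAs was -0.33 and 0.78), with 4 of 6 members above 0 (background 43.9%) and 3 higher by more than the spot SD (background 21.1%). miR-15a, miR-195 and miR-497 passed their spot SD upwards at both time points, as did 15.4% of the 123. Again no member reached 2-fold, against 0% of the 123 higher and 6.5% lower, while miR-195 and miR-497 did so without scaling, with spike-in probes and in the deposited table, beside 12.2%, 22.0% and 18.7% of the 123 in either direction. Both cluster members stayed above 0 at ZT14 in 13 of 13 alternatives, from 0.06 to 1.23 for miR-195 and from 0.01 to 1.18 for miR-497, whereas at ZT2 each was below 0 in 2 of 13. Without scaling, with spike-in probes, under scaling over all positive miRNAs and in the deposited table, that sign was not particular to them. There all 6 members were above 0 at ZT14, and the median of all miRNAs was 0.46 to 0.78. Above the median of all miRNAs, miR-195 lay by 0.27 to 0.48 and miR-497 by 0.22 to 0.44 over the 13 alternatives. The lowest ratios at ZT14 came with a median over all spots, which for a miRNA read by a brighter and a dimmer probe falls between the signals of both, and the next lowest with normexp background correction, at 0.10 and 0.05.

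**Figure D2:**
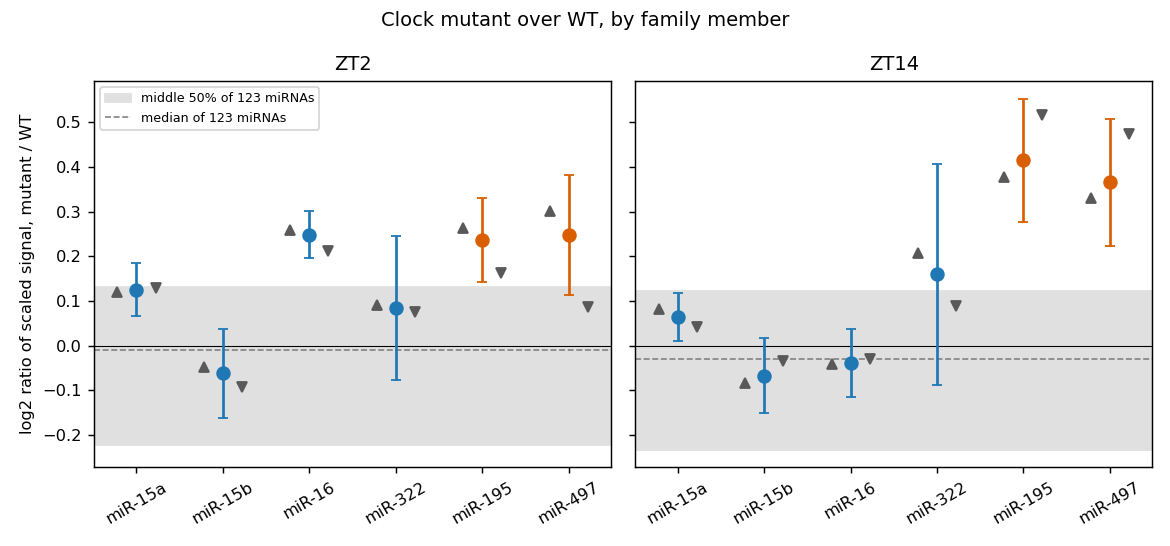
Log2 ratio of scaled signal, Clock mutant over WT, for each member at ZT2 and ZT14; circles with bars are the member and its spot SD, triangles its brighter (up) and dimmer (down) probe, the grey band the middle 50% of the 123 miRNAs and the dashed line their median. miR-195 and miR-497 lie above the band at both time points, at 0.24 and 0.25 at ZT2 and 0.42 and 0.37 at ZT14, while miR-16 does so at ZT2 alone; under 2 of 13 processing alternatives both cluster members are below 0 at ZT2.

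The probes of the cluster agreed in the direction of the mutant/WT ratio, though not in its size. All 4 probes of miR-195 and miR-497 had ratios above 0 at both time points, from 0.09 to 0.30 at ZT2 and from 0.33 to 0.52 at ZT14. Of the 123 miRNAs, 48.0% were above 0 at ZT2 and 43.9% at ZT14, while the share over all probes was not counted. Probes of a miRNA read the same pool on the same array, so they are not replicates. Of the 8 probes of the other members, 6 were above 0 at ZT2 and 4 at ZT14, and the highest of them at ZT14 read 0.21, below the lowest cluster probe. The 2 probes of miR-497 disagreed most within the family at ZT2, at 0.30 for the brighter and 0.09 for the dimmer, the second of which is within its spot SD of 0.14. They also disagreed most at ZT14, in the opposite order, at 0.33 for the brighter and 0.47 for the dimmer. For ZT14 over ZT2 in the mutant they stood at -0.01 and 0.14.

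The cluster of miR-195 and miR-497 was then compared with the other 4 members of the seed family. On the same pair of arrays this is a difference of ratios, which dividing an array by a constant cannot change. The mean log2 ratio of the cluster minus that of the other members was 0.14 at ZT2, with a spot SD of 0.097, and 0.36 at ZT14, with one of 0.12. Pair by pair, a cluster member exceeded another member in 7 of 8 pairs at ZT2, with 2 of the 8 differences past their spot SD, and in 8 of 8 pairs at ZT14, with 6 past it. The smallest difference at ZT14 was 0.21, for miR-497 over miR-322, within its spot SD of 0.29, and the largest was 0.48, for miR-195 over miR-15b. With quantile normalization alone, miR-322 (0.425) was not below miR-195 (0.360) and miR-497 (0.422). The order at ZT14 also ran with signal strength. Before scaling, miR-195, miR-497 and miR-322 read 33.3 to 148 units, and miR-15a, miR-15b and miR-16, with the lower ratios, 238 to 1301. The part of signal strength in the difference was not tested. At ZT2 the cluster did not stand apart from miR-16, the pairs differing by -0.01 and 0.00. The difference of the means at ZT14 was above 0 in 13 of 13 alternatives, from 0.13 with normexp to 0.49 with a median over all spots. It was 0.26 with quantile normalization and 0.25 with cyclic loess. At ZT2 it was above 0 in 12 of 13 and read -0.70 with the median over all spots. Many of these alternatives change only a constant per array, so they repeat 0.36 and 0.14 and add nothing to the counts. They are no scaling, the other constant scalings, the total signal and the deposited table. Members are not replicates of the genotype, so no test was attached to these differences.

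**Figure D3:**
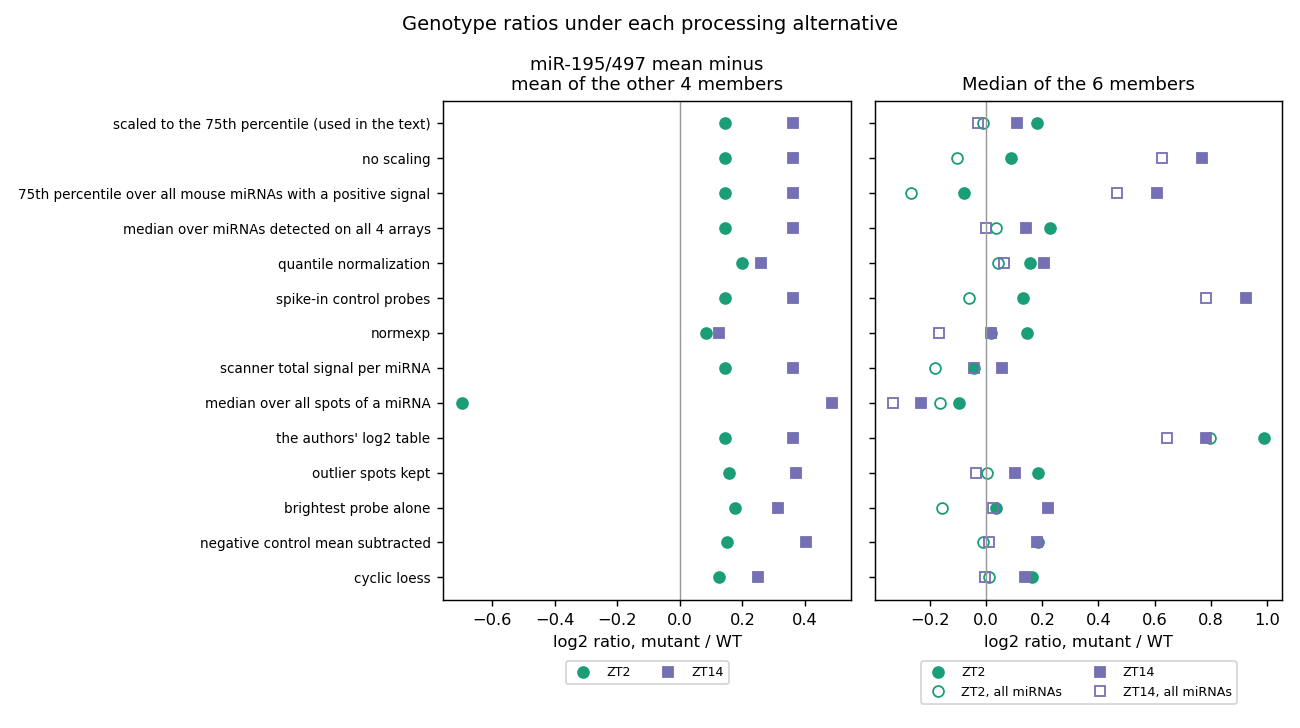
Left, the mean log2 mutant/WT ratio of miR-195 and miR-497 minus that of the other 4 members; right, the median ratio of the 6 members (filled) and of all miRNAs (open); each row is a way of processing the arrays, circles are ZT2 and squares ZT14. The left-hand difference is above 0 at ZT14 in every row, from 0.13 to 0.49, and turns to -0.70 at ZT2 in 1 row, while the right-hand medians move together with those of all miRNAs. Rows that change only a constant per array repeat the same left-hand difference.

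miR-16, the member most like miR-195 in sequence, was close to it in its mutant/WT ratio at ZT2 and below it at ZT14. miR-195 minus miR-16 was 0.45 (spot SD 0.16) at ZT14, above 0 in 13 of 13 alternatives but 0.12 with normexp, less than that spot SD. Alternatives that change only a constant per array repeat the 0.45 and add nothing to that count. At ZT2 it was -0.01 (spot SD 0.11), and -1.13 with a median over all spots. Between the time points, the mutant/WT ratio of miR-16 fell by 0.29 (spot SD 0.09), while those of miR-195 and miR-497 differed by 0.18 (spot SD 0.17) and 0.12 (spot SD 0.20), the second within its spot SD. miR-195 and miR-497 instead followed each other. The log2 signal of miR-195 minus that of miR-497 varied over the 4 arrays by a range of 0.05, whereas that of miR-15a minus miR-16 ranged over 0.20 and that of miR-15b minus miR-16 over 0.31. With a median over all spots, miR-195 and miR-497 parted. Their log2 ratios of ZT14 to ZT2 were then -0.36 and 0.21 in WT, and 0.09 and 0.93 in the mutant. These are descriptions over 4 arrays that share 1 scan.

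Across the 123 miRNAs, the profile nearest to that of miR-195 over the 4 arrays, by the root mean square difference of mean-centred log2 signals, was that of miR-497, at 0.018, a measure that a constant per array does not change. The next nearest of the 122 compared were miR-125b-5p (0.060), miR-199a-3p (0.074), miR-10a (0.078) and miR-199a-5p (0.082). The members with the same seed were farther: miR-322 ranked 16th, miR-15a 19th, miR-16 41st and miR-15b 52nd. Nearest to miR-16 were miR-101b, miR-107, miR-194, miR-103 and let-7g, at 0.042 to 0.053, with miR-15a 9th and miR-195 67th. Nearest profiles were not sought under the processing alternatives.

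**Figure D4:**
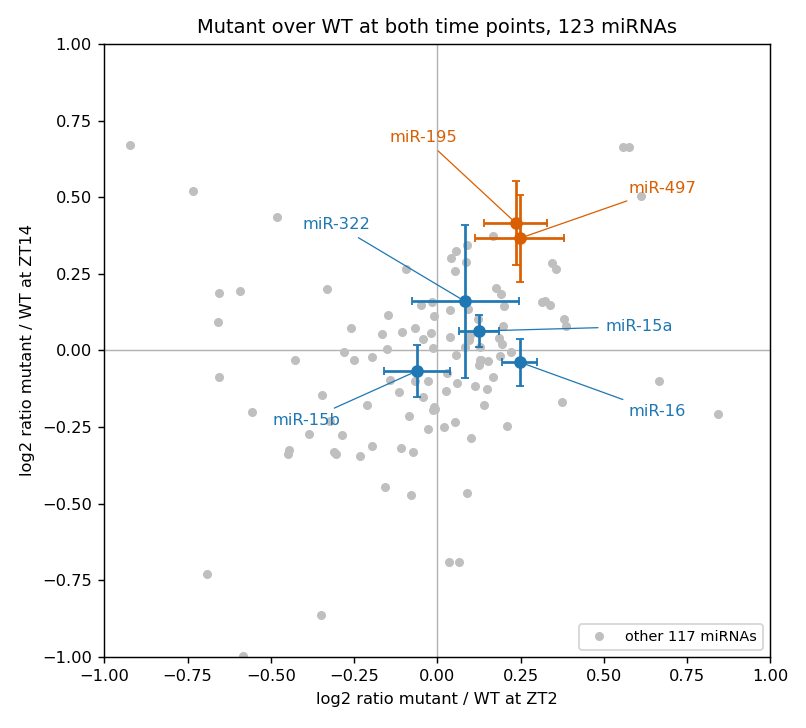
Log2 ratio of mutant to WT at ZT2 (horizontal) and ZT14 (vertical) for miRNAs detected on all 4 arrays; grey points are miRNAs outside the family, coloured points the 6 members with their spot SD in both directions, and 9 of the 123 miRNAs lie beyond the axes. miR-195 and miR-497 sit together in the upper right, miR-16 lies to the right near the horizontal line and miR-15b just below and left of the centre; dividing an array by another constant moves all points together, which quantile normalization and cyclic loess do not.

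Genotype was also tested over all 4 arrays with limma, an additive model of genotype and time with 1 residual degree of freedom per miRNA. With 1 array per combination, that residual is the departure from additivity of genotype and time. The SEs and p-values therefore hold no separate measure of variation between mice or pools. The genotype coefficient (mutant minus WT, log2) was 0.33 (SE 0.13) for miR-195, with a 95% interval of -0.04 to 0.69, and 0.31 (SE 0.13) for miR-497, with an interval of -0.05 to 0.66. Both had a Benjamini-Hochberg adjusted p of 0.422 in limma over the 123 miRNAs, and ranked 4th and 8th among them by the coefficient. The other members had coefficients between -0.06 and 0.12 with adjusted p between 0.729 and 0.820 in limma. Called at an adjusted p under 0.05 were 0 of 6 members and 0% of the 123 miRNAs, and at an unadjusted p under 0.05 were 0 members and 10 miRNAs. The intervals of all 6 members include 0 and extend past 0.25 on the upper side. Without the WT array at ZT2, and with genotype alone in the model, the coefficients were 0.39 (SE 0.21) for miR-195 and 0.35 (SE 0.21) for miR-497, both with an adjusted p of 0.951 in limma, and 0 members were called. An exact two-sided permutation of 2 mutant against 2 WT arrays cannot give a p below 0.333, the value it gave for both miR-195 and miR-497.

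The second comparison asked how the family differed between ZT14 and ZT2 within a genotype. It uses the same 4 arrays as the first. In WT all 6 members had a log2 ratio of ZT14 to ZT2 below 0, from -0.22 to -0.07, as had 77.2% of the 123 miRNAs, with a family median of -0.12 beside -0.13 over all 123. In the mutant, 4 of the 6 were below 0 (background 82.9%), with a family median of -0.15 beside -0.17 over all. The other 2 were the cluster: miR-195 at 0.05 (spot SD 0.12) and miR-497 at 0.02 (spot SD 0.13), both within their spot SD. miR-16 gave the lowest value there, -0.36 (spot SD 0.06). The cluster minus the other members was 0.03 (spot SD 0.11) in WT and 0.25 (spot SD 0.10) in the mutant. The sign of the family's median in these ratios depended on the processing: it turned positive in 6 of 13 alternatives in each genotype. In the mutant, miR-195 was above 0 in 13 of 13 alternatives and miR-497 in 11, against 6 and 7 in WT. These counts include the deposited table and scaling over all miRNAs with a positive signal. In both of those, all 6 members were above 0 in each genotype, so they do not set the cluster apart. Each of the other members was above 0 in some alternatives in both genotypes. In limma, the time coefficients of the members lay between -0.22 and -0.04, with Benjamini-Hochberg adjusted p between 0.525 and 0.898. Called by time were 0 members and 0% of the 123 miRNAs, with 0 members and 12 miRNAs at an unadjusted p under 0.05.

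Of 14 passenger strands and cluster neighbours listed, 13 were on the array, and 0 of the 13 were detected on any array, including miR-15a*, miR-15b*, miR-16*, miR-322*, miR-503 and miR-351. The brightest, miR-450a-5p from the same region of the X chromosome as miR-322, reached 8.51 units in WT at ZT2. The passenger strand of miR-497 was not on the array and that of miR-195 was not in the list, so neither was read.

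Liver is a mixture of cells, and in a pooled extract fewer cells of a type and less RNA per cell cannot be told apart. The hepatocyte miRNAs miR-122, miR-192 and miR-194 were detected on all 4 arrays, with mutant/WT ratios of 0.10 to 0.19 at ZT2 and -0.09 to 0.18 at ZT14 on the log2 scale. Red blood cell miRNAs moved in the same direction as miR-16 at ZT2: miR-451 had a ratio of 0.84 (spot SD 0.06) and miR-144 one of 0.37 (spot SD 0.14), with miR-486 detected on 1 array. The summed relative signal of miR-451 and miR-144 was 3.32 at ZT2 and 2.94 at ZT14 on the WT arrays and 5.91 and 2.55 on the mutant arrays, highest on the array where miR-16 was highest. This was not particular to them: the hepatocyte and endothelial sums were also highest on that array, at 122 and 4.25. The leukocyte, mesenchymal and bile duct sums were not. The part of red blood cells in the ratio of miR-16, which is abundant in them, was not tested.

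Mesenchymal miRNAs lay near the cluster at ZT14. Of 5 listed, miR-143, miR-199a-3p and miR-199a-5p were detected on all 4 arrays, miR-214 on 3 and miR-145 on 0. The median log2 ratio of the 3 was 0.06 at ZT2 and 0.29 at ZT14, with all 3 above 0 at ZT14. At ZT14 that median was the ratio of miR-199a-5p, within its spot SD of 0.71. There miR-199a-3p stood at 0.32 (spot SD 0.09) and miR-143 at 0.19 (spot SD 0.14). At ZT2, however, miR-143 stood at -0.59 (spot SD 0.12), where miR-195 stood at 0.24. The summed relative signal of the 3 was 0.632 at ZT2 and 0.506 at ZT14 on the WT arrays, and 0.575 and 0.616 on the mutant arrays. Their part in the ratios of miR-195 and miR-497 was not tested. The bile duct miRNAs miR-200a and miR-200b were also higher in the mutant at ZT14, with ratios of 0.52 and 0.67, within spot SDs of 0.59 and 1.34, and lower at ZT2. The endothelial list (2 of 2 detected) had medians of 0.07 and -0.14 at ZT2 and ZT14, the leukocyte list (2 of 5 detected on all arrays) -0.54 and 0.08.

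Other seed families known for acting on the cell cycle were read in the same way, with 0 of 17 members fitted called for genotype by limma at a Benjamini-Hochberg adjusted p under 0.05 and 2, miR-34a and miR-221, at an unadjusted p under 0.05. All 9 members of the let-7 family, which restrains growth regulators such as Lin28 and Hmga2, were detected, with a median mutant/WT log2 ratio of 0.12 at ZT2 and 0.05 at ZT14. The miR-17 family, which favours proliferation, had 4 members detected on all arrays and medians of 0.13 and 0.21. miR-34a, a p53 target that halts the cycle, stood at 0.56 at ZT2, with a spot SD of 0.13, and at 0.66 (spot SD 0.14) at ZT14, and miR-221, which lowers the cell cycle inhibitor p27, at 0.58 (spot SD 0.13) and 0.66 (spot SD 0.18). The 2 members of the miR-26 family had medians of -0.02 and -0.15. These ratios of miR-34a and miR-221 were larger than those of miR-195 and miR-497 at both time points, and like theirs remained under 2-fold.

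The deposited log2 table gave larger ratios for the same members. For them it equals the log2 of the scanner's total signal per miRNA minus 1 constant per array, which at ZT2 was 4.18 (WT) and 3.27 (mutant) and at ZT14 was -3.32 in both genotypes. This adds 0.92 to the log2 ratio of every member at ZT2 and 0.00 at ZT14, where the dimmer WT array stays unscaled. Read from that table, the ratios at ZT2 were 2.08-fold for miR-16, 2.06-fold for miR-195 and 2.08-fold for miR-497, and at ZT14 2.13-fold for miR-195 and 2.06-fold for miR-497, while miR-15a, miR-15b and miR-322 were between 1.52-fold and 1.91-fold. The 2-fold threshold thus took in 3 members at ZT2 and 2 at ZT14 in that table, beside 18.7% of the 123 miRNAs at each time in either direction, and 0 at both times after scaling to the 123 miRNAs. The differences between members were the same in both.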

How the data were processed

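Liver miRNAs of 4 pools were read on 1-colour Agilent arrays. The authors deposited scanner output from Agilent Feature Extraction 10.7.1.1 with background-subtracted intensity per spot and flags, and a log2 table per miRNA. The study's methods name Agi4x44PreProcess and a 2-fold threshold, and no scaling method is given in the sources used here. From the intensity, spots without outlier flags were averaged for each probe and the probes for each miRNA, the mean was divided by the array's 75th percentile (taken over the 123 mouse miRNAs that every array detected), and log2 taken. A negative or undetected value was given no ratio. Genotype and time were fitted with limma 3.58.1 (R 4.3.3, Benjamini-Hochberg). The fit was first run on simulated data whose genotype changes were larger than the coefficient of any member. That run does not bear on changes of the size seen in the members. Python 3.11.15, numpy 2.4.6, pandas 2.3.3 and matplotlib 3.10.9 did the rest.

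Named miRNAs were the 6 members, their passenger strands and neighbours, other cell cycle seed families, cell type markers, and the 5 profiles nearest to miR-195 and to miR-16. The members, lists and alternatives were chosen with earlier results of these data known. The alternatives were other scalings (none, the 75th percentile over all miRNAs with a positive signal, the median, quantile with a floor of 1, spike-in probes), normexp with an offset of 50, other summaries (total signal, median over spots, brightest probe, outliers kept, the deposited table), a 1.5-fold threshold, and for limma other miRNA sets, single factors and each array left out. Sequences came from RefSeq GRCm38.p6. The number of arrays limits the precision. The qRT-PCR was not analysed here.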

Additional observations from a re-analysis of the deposited data

How the results depend on the processing

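Of 13 alternatives, the family's median log2 ratio of mutant to WT moved by less than the spot SD in 8 at each time point. At ZT2 it turned to -0.078 with scaling over all miRNAs with a positive signal, -0.044 with the total signal and -0.098 with the median over all spots, and was 0.99 in the deposited table and 0.037 with the brightest probe. At ZT14 it was 0.77 unscaled, 0.61 over all positive miRNAs, 0.93 with spike-in probes, 0.78 in the deposited table and -0.23 with the median over all spots. The day-night median in WT was -0.78 unscaled, 0.13 over all positive miRNAs, 0.10 with the median over detected miRNAs, 0.092 with quantile, -0.85 with spike-ins, 0.0083 with normexp, 0.19 with the median over all spots, 6.78 in the deposited table and -0.0037 with cyclic loess. In the mutant it was 0.85 over all positive miRNAs, 0.053 with the median over detected miRNAs, 0.095 with quantile, -0.018 with spike-ins, 6.61 in the deposited table, 0.027 with the brightest probe and 0.030 with cyclic loess. The cluster minus the other members was 0.13 with normexp and 0.49 with the median over all spots at ZT14, and -0.70 with the latter at ZT2. At least 2-fold were 2 members at ZT14 unscaled, 2 with spike-ins and 2 in the deposited table (12.2%, 22.0% and 18.7% of the 123), where 3 were at ZT2 (18.7%). limma called 6 members in the deposited table for genotype and 6 for time, where 79 and 123 of the 123 miRNAs were called, and 0 members otherwise, including 0 to 0 with each array left out. Causes were not tested, except that a constant per array moves every ratio alike. Subtraction of the negative control mean and cyclic loess were chosen after seeing the data. No paired analysis was possible because replicate numbers pair nothing with 1 array for each combination, beyond the pairing by time point that the additive limma model holds. Dim signals limit miR-322 most, at 33.3 units in WT at ZT14.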
